A study of Ovis aries with 9 samples.

Results

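The genes described here encode enzymes related to the tricarboxylic acid (TCA) cycle, mitochondrial fatty acid oxidation and the step by which glutamine carbon enters the cycle. They were chosen by name, from 34 gene symbols, and 30 of the 34 were found as 1 row each among the 39157 genes of the expression table: 16 of the TCA cycle, 11 of fatty acid oxidation and 3 of glutamine use. Of the genes placed under the TCA cycle, ACO1, IDH1 and MDH1 encode cytosolic enzymes, and no subunit of succinate dehydrogenase was among them. ACADM, ACAA2, ETFA and ETFB, which all belong to fatty acid oxidation, were not found by symbol and were not analysed here.

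The cells were ovine granulosa cells (GCs), the somatic cells around the oocyte, taken from ovaries of thin-tailed Han ewes, aged 1 year or more, that were collected at an abattoir. Follicles of 3 to 5 mm were emptied and the suspensions of many ovaries were pooled, so that the replicates of this culture model are not single animals. All GCs grew for 48 h with 10% fetal bovine serum and were then kept for 8 h without glucose and serum. For the next 24 h they received 0 mM glucose (CON), 8.4 mM glucose (LOW) or 33.6 mM glucose (HIGH), and RNA-seq was performed on 3 libraries per group. The labels do not say whether the 3 libraries of a group came from separate cultures, so the p-values below measure the spread between these libraries, which may be technical.

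In the TCA cycle, citrate synthase joins acetyl-CoA to oxaloacetate, and aconitase, isocitrate dehydrogenases, the 2-oxoglutarate dehydrogenase complex, succinyl-CoA ligases, succinate dehydrogenase, fumarase and malate dehydrogenase return the carbon to oxaloacetate while electrons pass to the respiratory chain. Long-chain fatty acids enter mitochondria through the carnitine shuttle and are shortened in rounds of dehydrogenation, hydration, oxidation and thiolysis that release acetyl-CoA. Glutamate made from glutamine enters the cycle as 2-oxoglutarate through glutamate dehydrogenase or transaminases. GCs are known for active glycolysis and for passing pyruvate to the oocyte, and fatty acids and glutamine are other fuels of the cycle when glucose is short. The question put to the data was whether the RNA of these enzymes differed between GCs without glucose and GCs with a low or a high dose.

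Levels are given as FPKM (fragment density adjusted for transcript length and library size) after each library was divided by a factor of 0.937 to 1.11 that brings the libraries to a common median, and are called scaled FPKM. An FPKM of 1 was estimated at 48.0 to 71.3 fragments per kilobase, and the lowest value of any member in any library at 105 fragments per kilobase. The estimate came from a deposited table whose values are not numbers of reads, so it is not a measured depth. The lowest members carried the most counting error. Libraries stood apart in composition. Small RNA genes held 52.1, 64.8 and 68.6% of FPKM in CON replicates 1, 2 and 3, 67.0, 69.4 and 72.1% in LOW and 30.3, 50.7 and 68.2% in HIGH, and assembled loci without a gene name held 42.4% in HIGH replicate 1 against 4.17 to 19.6% in the other 8 libraries. As a check of the labels, TXNIP and ARRDC4, whose transcription is known to follow glucose supply, had higher levels in all 6 libraries with glucose than in the 3 CON libraries. In scaled FPKM, TXNIP lay between 68.5 and 105 without glucose, between 213 and 233 in LOW and between 179 and 216 in HIGH (log2 fold change of LOW and HIGH pooled versus CON 1.29, limma adjusted p = 0.0359, and 1.27 for ARRDC4, limma adjusted p = 0.0464). Neither gene passed in LOW versus CON (TXNIP 1.38, limma adjusted p = 0.118, ARRDC4 1.17, limma adjusted p = 0.353) or in HIGH versus CON (TXNIP 1.21, limma adjusted p = 0.171, ARRDC4 1.37, limma adjusted p = 0.122), so differences of more than 1 on the log2 scale in these genes also missed the threshold used below. The cell type was checked as well. Of 10 granulosa markers, 7 were found by symbol and 5 of these had a mean above 1 scaled FPKM. FSHR, the receptor of follicle-stimulating hormone, was at 0.228 to 0.578, INHA, the inhibin alpha subunit, at 8.51 to 20.2, and CYP19A1, FOXL2 and AMH were not found. The 8 stromal and smooth muscle markers were all above 1, with LUM, a matrix proteoglycan, at 1755 to 2295, and summed to between 4747 and 6892 (CON), 5524 and 5982 (LOW) or 4615 and 6091 (HIGH), against 41.8 to 52.2 (CON), 39.5 to 44.2 (LOW) and 41.1 to 41.8 (HIGH) for the granulosa markers. Within the stromal sum, 5 of the 8 markers were higher and 3 lower by fold change in HIGH versus CON. TAGLN averaged 2054 ± 747 in CON and 1475 ± 603 in HIGH, and ACTA2 and DCN were lower as well. The collagen genes stood higher in HIGH. COL1A1 averaged 25.2 ± 8.07 in CON, 25.2 ± 2.22 in LOW and 79.1 ± 43.9 in HIGH, and for COL1A1, COL1A2 and COL3A1 each HIGH library was above each CON and LOW library. Of all genes, 5.14% were higher without overlap in HIGH versus CON and 11% in HIGH versus LOW. Of the 8 markers, 2 in HIGH versus CON and 3 in HIGH versus LOW were higher at an unadjusted p-value under 0.05. After adjustment in limma it was 0. Of all genes, 6.74 and 7.63% had such an unadjusted p-value in either direction. The luteinized and theca markers summed to between 148 and 155 in HIGH, below LOW and CON, where the sums lay between 169 and 216. CYP11A1 made up most of this, at 141 to 147 in HIGH and 160 to 203 in the other groups. STAR was also lower in HIGH, and HSD3B1 overlapped. CYP17A1 and INSL3 did not exceed 0.423 and 0.0836, and LHCGR was not found. Of all genes, 4.24% were lower without overlap in HIGH versus CON and 7.94% in HIGH versus LOW. Of 8 endothelial and blood markers, 7 were found, and they summed to between 15.2 and 21.1. CD68 (7.39 to 13.4) and CD14 (6.17 to 7.48), which mark macrophages, made up most of this, LYZ reached 1.07 and PTPRC 0.692, while the endothelial CDH5 was at 0 in all libraries and PECAM1 did not exceed 0.0714. The part of other cell types in the results was not tested, and in such bulk RNA fewer cells of a type and less RNA per cell cannot be told apart.

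All 30 members were expressed in all 9 libraries and all passed the filter on low values. Their means over the libraries ran from 3.15 scaled FPKM for SLC25A20, the carnitine-acylcarnitine carrier, to 128 for MDH1, the cytosolic malate dehydrogenase. After MDH1, the most abundant were the mitochondrial aspartate aminotransferase GOT2 (mean 95.6), fumarase FH (90.6) and mitochondrial malate dehydrogenase MDH2 (81.4). These 4 genes encode enzymes of malate and aspartate metabolism, and 3 of them, MDH1, MDH2 and GOT2, belong with GOT1 (39.3) to the malate-aspartate shuttle that carries cytosolic reducing equivalents into mitochondria. At the lower end stood genes of the fatty acid route, with ACADL at 3.55 and ETFDH at 3.63. Summed over the 30 members, scaled FPKM was 1253 ± 88.0 in CON, 1202 ± 23.9 in LOW and 1136 ± 73.6 in HIGH (SD, n = 3 each), and the ranges of the 3 groups overlapped.

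**Figure D1:**
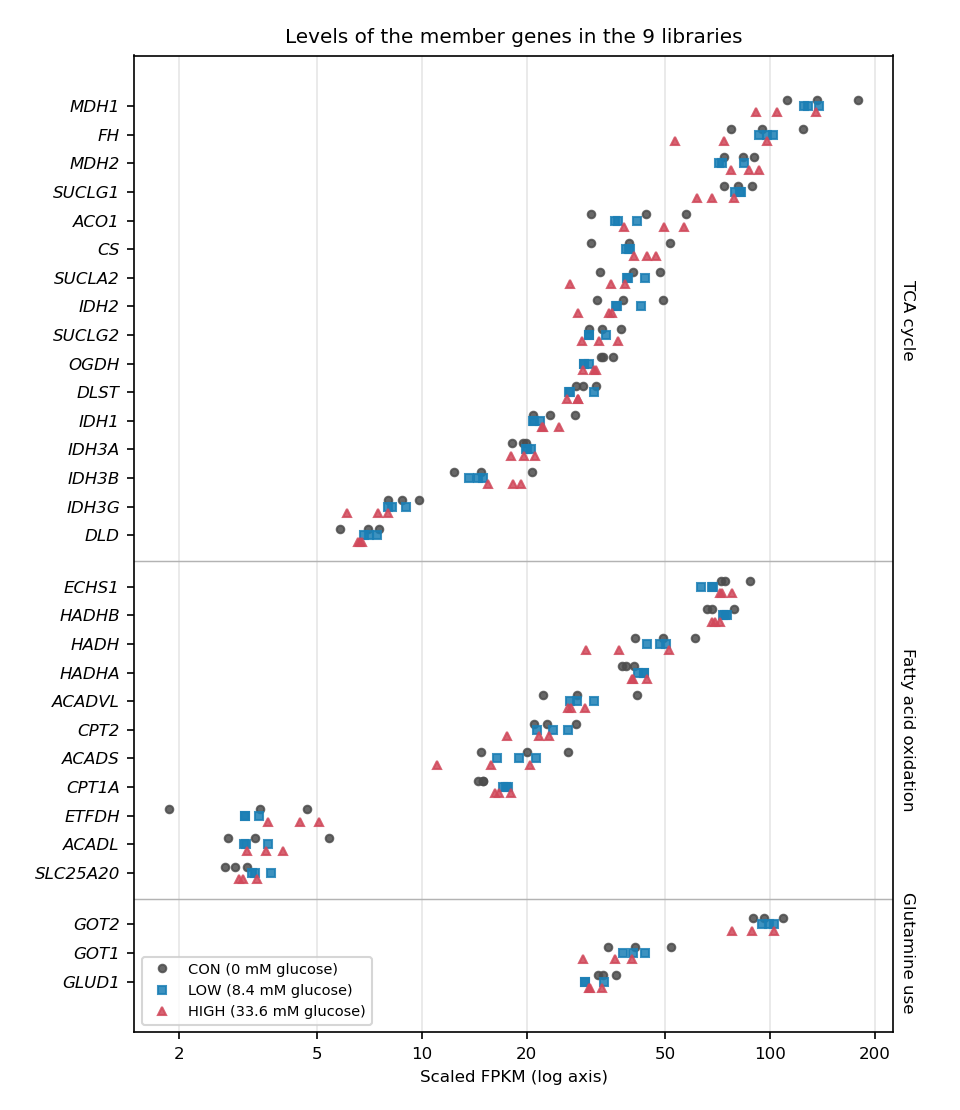
Scaled FPKM of the 30 members in each library (log axis), ordered by mean level within each role, with CON as circles, LOW as squares and HIGH as triangles. The points of the 3 groups lie close together beside the spread of levels between genes, which runs from 1.87 for ETFDH to 179 for MDH1, both in CON replicate 3.

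The comparison of LOW with CON asks what a low dose of glucose did to these transcripts. None of the 30 members passed an adjusted p-value of 0.05 in limma over the 24365 genes tested, a threshold that 2 genes in all passed (0.00821%). The differences were small, from a log2 fold change of -0.22 to 0.23 with a median of -0.047 (0.0082 over all genes), which was 0.078 without CON replicate 3 and -0.15 without library scaling. By fold change 12 members were higher and 18 lower in LOW, where 51.5% of all genes were higher. Without adjustment 1 member, CPT1A, had a p-value under 0.05 (1.83% of all genes). For 6 members the LOW and CON libraries did not overlap (6.08% of all genes): CPT1A, SLC25A20, HADHA and IDH3A were higher in the 3 LOW libraries (4 members, 3.02% of all genes) and OGDH and ECHS1 lower (2 members, 3.06%). CPT1A, SLC25A20 and HADHA belong to the entry and the later steps of long-chain fatty acid oxidation, but ECHS1 of the same route lay on the other side. In FPKM as deposited, LOW and CON overlapped for CPT1A, HADHA and IDH3A. For SLC25A20 they overlapped in its annotated transcript alone. At the transcript level IDH3A overlapped too.

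The comparison of HIGH with CON asks the same of the high dose. Again 0 members passed after adjustment (2 genes of all tested, 0.00821%), and 0 had an unadjusted p-value under 0.05, against 6.74% of all genes. Log2 fold changes ran from -0.41 for FH to 0.46 for ETFDH, with a median of -0.084 (0.066 over all genes). By fold change 9 members were higher, where 56.0% of all genes were higher. The groups did not overlap for 3 members (9.38% of all genes), with CPT1A higher (1 member, 5.14%) and OGDH and IDH3G lower in HIGH (2 members, 4.24%). In FPKM as deposited, CPT1A and OGDH overlapped.

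Between HIGH and LOW, 0 members passed after adjustment (0.00821% of all genes) and 0 without it (7.63%). The median log2 fold change was -0.048 (0.053 over all genes), and it was 0.017 on FPKM without library scaling. By fold change 11 members were higher in HIGH, where 55.1% of all genes were higher, again with genes at lower levels than the members included. Groups without overlap were more frequent here than in the other comparisons. They were found for 11 members, and for 18.9% of all genes. Of the 11, CS, IDH1, IDH3B, ECHS1 and ETFDH were higher in HIGH (11% of all genes), and IDH2, IDH3G, DLD, SUCLA2, SUCLG1 and HADHB were lower (7.94%). In FPKM as deposited, CS, IDH1, IDH2, IDH3G, DLD and HADHB overlapped. In the main annotated transcript alone, IDH3G and SUCLA2 overlapped. DLD overlapped both in its annotated transcript and in the assembled transcript that held most of its signal. With LOW and HIGH pooled against CON, 0 members passed after adjustment (6 genes of all tested, 0.0246%), 1 had an unadjusted p-value under 0.05 (CPT1A, 2.65% of all genes), and 2 did not overlap (1.41% of all genes), CPT1A, higher with glucose (0.685%), and OGDH, lower (0.726%). In FPKM as deposited, CPT1A and OGDH overlapped here too. In the pooled comparison 9 members were higher by fold change, as were 54.8% of all genes, those at lower levels included. These comparisons share libraries and are not independent of each other.

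The intervals show what differences remained possible. The 95% confidence interval reached 0.32 to either side on the log2 scale for the median member in each comparison of 3 against 3 libraries, and ran from 0.23 for the most even gene to 0.65 for the least even. For LOW versus CON the intervals of all 30 members lay within a log2 fold change of 1 in either direction. For HIGH versus CON and for HIGH versus LOW they did so for 29 members, the exception being ETFDH with upper bounds of 1.11 and 1.08. These intervals are not adjusted for the number of genes, and a call after adjustment takes a larger difference than they show.

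**Figure D2:**
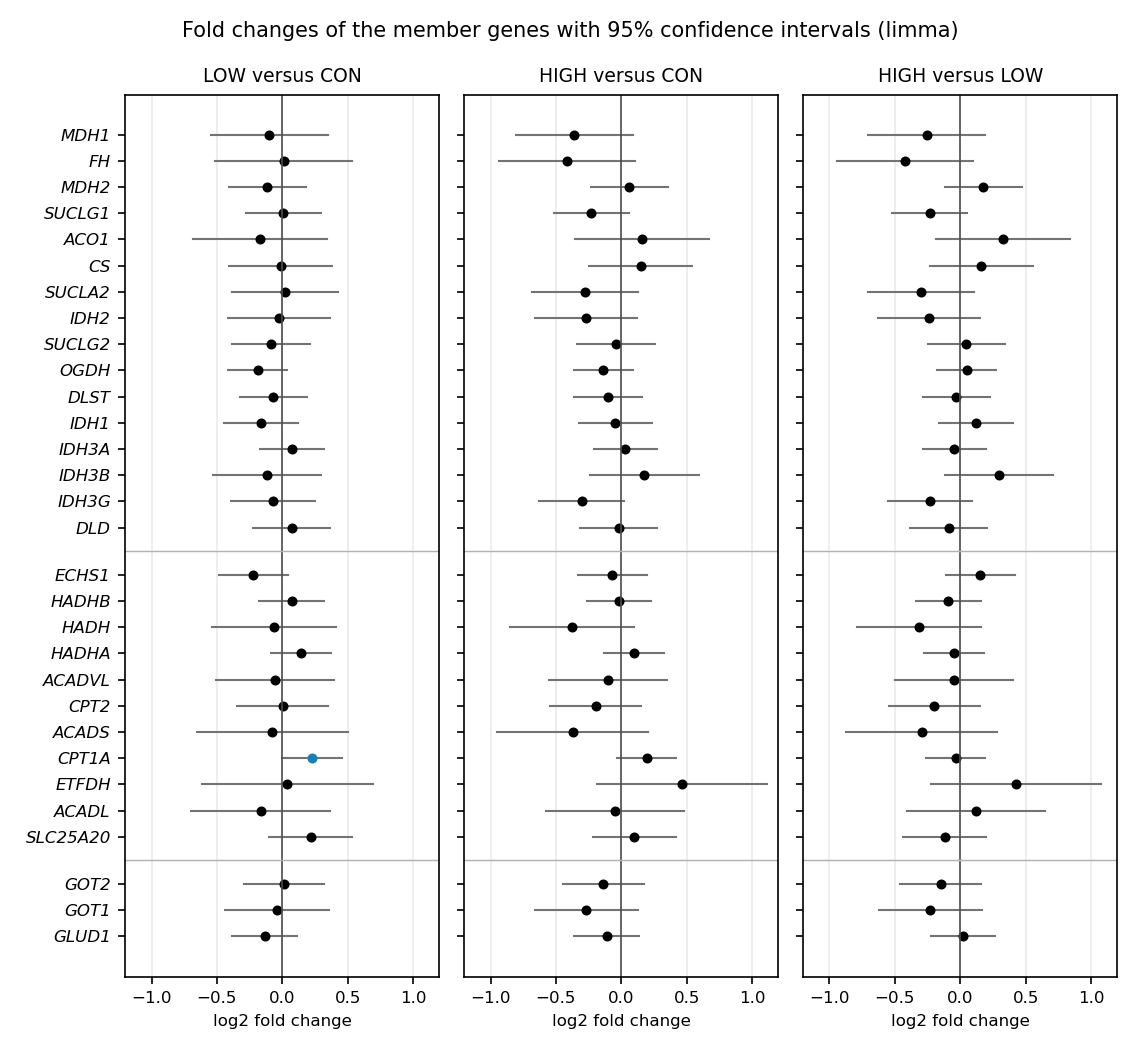
Log2 fold changes of the 30 members (points) with 95% confidence intervals (lines) for the 3 comparisons between groups, in the same gene order as the plot of levels. CPT1A in LOW versus CON, drawn in blue, is the only point whose unadjusted interval leaves out 0, and the interval of ETFDH is the widest in each panel.

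Among the 16 TCA cycle members, the enzyme named first is CS (chromosome 3:162970617-162991754, coordinates as in the deposited table, whose genome build is not given in the sources used here), which makes citrate. CS had 51.4, 39.4 and 30.6 scaled FPKM in CON, 39.6, 38.6 and 39.4 in LOW and 46.9, 44.3 and 40.5 in HIGH. Its 3 CON libraries enclosed all the others. ACO1, the cytosolic aconitase that doubles as an iron-regulated RNA-binding protein, had the same layout, its libraries reaching from 30.6 to 57.3 (CON), 35.8 to 41.4 (LOW) and 38.0 to 56.6 (HIGH).

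The isocitrate dehydrogenases oxidise isocitrate to 2-oxoglutarate. IDH1, the cytosolic NADP-linked enzyme, averaged 23.9 ± 3.32 in CON, 21.2 ± 0.501 in LOW and 23.0 ± 1.53 in HIGH (SD, n = 3 here and below), and IDH2, its mitochondrial counterpart, 39.6 ± 8.81, 38.3 ± 3.69 and 32.5 ± 3.89. The 3 subunits of the mitochondrial NAD-linked enzyme did not move as a unit. Its catalytic subunit IDH3A stayed between 18.0 and 21.1 in the 9 libraries, while IDH3B ranged from 12.3 to 20.7 with its highest and lowest value both in CON.

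IDH3G (X:77612216-77625696), a regulatory subunit of the same enzyme, had the smallest p-value of any member in HIGH versus CON. It had 7.98, 8.77 and 9.77 scaled FPKM in CON, 7.99, 8.97 and 8.20 in LOW and 6.06, 7.45 and 7.98 in HIGH. The HIGH libraries were the lowest, but the highest HIGH library reached the lowest CON library to the digits shown. The log2 fold change of HIGH versus CON was -0.30 (SE 0.14, limma adjusted p = 0.650), that of LOW versus CON -0.072 and that of the pooled comparison -0.19 (SE 0.12, limma adjusted p = 0.937). The HIGH versus CON value was -0.19 without HIGH replicate 1 and -0.17 with the small RNA share of each library in the model, and the pooled value -0.11 without CON replicate 3.

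OGDH, DLST and DLD encode the 3 components of the 2-oxoglutarate dehydrogenase complex. OGDH (4:76827114-76881294), the component that decarboxylates 2-oxoglutarate, had 33.2, 32.6 and 35.4 scaled FPKM in CON, 29.3, 30.3 and 29.2 in LOW and 31.3, 31.6 and 29.0 in HIGH. All 3 CON libraries were above all 6 libraries with glucose, but the lowest CON library was within 1 SD of the highest HIGH library. In FPKM as deposited the separation from HIGH was lost, with 33.27 in CON replicate 2 and 33.37 in HIGH replicate 2. The log2 fold change was -0.19 for LOW versus CON (SE 0.10, limma adjusted p = 1.00) and -0.16 for the pooled comparison (SE 0.087, limma adjusted p = 0.937), and the former was -0.29 without library scaling. DLST, the succinyl transferase, did not share the layout, at 27.8, 31.7 and 28.9 in CON, 26.5, 31.1 and 26.7 in LOW and 28.2, 28.1 and 26.0 in HIGH. DLD, the dihydrolipoyl dehydrogenase that the pyruvate dehydrogenase complex uses too, was the lowest of the TCA members, at 7.51, 6.99 and 5.81 in CON, 7.401, 6.81 and 7.02 in LOW and 6.74, 6.56 and 6.63 in HIGH.

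The succinyl-CoA ligases share the alpha subunit SUCLG1 and differ in the beta subunit, SUCLA2 for ATP and SUCLG2 for GTP. SUCLG1 (3:56150389-56177606) had 73.8, 81.1 and 88.6 scaled FPKM in CON, 79.5, 82.3 and 82.1 in LOW and 61.6, 68.0 and 78.7 in HIGH. The 3 HIGH libraries lay below the 3 LOW libraries, with a log2 fold change of -0.23 (SE 0.13, limma adjusted p = 0.634), and overlapped with CON. This difference was -0.15 without HIGH replicate 1 and -0.033 with the small RNA share of each library in the model. SUCLA2 (10:18125209-18223297) had 32.4, 40.4 and 48.3 in CON, 39.0, 38.8 and 43.8 in LOW and 26.6, 34.8 and 38.4 in HIGH, with a log2 fold change of -0.30 for HIGH versus LOW (SE 0.18, limma adjusted p = 0.638). The other beta subunit, SUCLG2, had nearly level group means of 33.4 ± 3.57, 31.4 ± 2.12 and 32.5 ± 3.83. The HIGH versus LOW difference of SUCLA2 was -0.15 without HIGH replicate 1 and 0.047 with the small RNA share in the model.

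FH and the malate dehydrogenases were the most abundant of the TCA members. FH (12:33430128-33454649), which hydrates fumarate to malate, had 77.5, 95.1 and 124 scaled FPKM in CON, 92.8, 98.3 and 102 in LOW and 53.4, 73.9 and 97.8 in HIGH. CON and HIGH each spread widely and LOW did not. The log2 fold change of HIGH versus LOW was -0.42 (SE 0.23, limma adjusted p = 0.634), and it was -0.20 without HIGH replicate 1, -0.64 without HIGH replicate 3 and 0.080 with the small RNA share in the model. MDH1 (3:44557106-44580716) had 112, 137 and 179 in CON, 125, 129 and 138 in LOW and 91.4, 105 and 136 in HIGH, with a log2 fold change of -0.36 for HIGH versus CON (SE 0.20, limma adjusted p = 0.650). It was -0.18 without CON replicate 3, -0.23 without HIGH replicate 1 and -0.13 with the small RNA share in the model. Mitochondrial MDH2, by contrast, had its highest value in HIGH, with group means of 82.3 ± 8.16 in CON, 76.1 ± 6.97 in LOW and 85.9 ± 7.94 in HIGH. The difference between the malate dehydrogenases was tested as a ratio further on.

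Among the 11 fatty acid oxidation members, the carnitine shuttle comes first. CPT1A (21:45444763-45488917), the outer-membrane carnitine palmitoyltransferase that limits the entry of long-chain fatty acids, had 14.96, 14.5 and 14.9 scaled FPKM in CON, 17.7, 17.4 and 17.0 in LOW and 16.2, 16.6 and 18.1 in HIGH. All 6 libraries with glucose were above the 3 CON libraries, as were those of 0.685% of all genes. The SD was 0.267 in CON, 0.315 in LOW and 0.992 in HIGH. The level was 17.2% higher in LOW than in CON (log2 fold change 0.23, SE 0.10, limma adjusted p = 1.00), 14.3% higher in HIGH (0.19, SE 0.10, limma adjusted p = 0.650) and 15.8% higher in the pooled groups (0.21, SE 0.088, 95% confidence interval 0.013 to 0.41, limma adjusted p = 0.937). The separation depended on the library scaling. In FPKM as deposited, CON replicate 1 had 16.6 and overlapped with LOW (15.96 to 17.5) and HIGH (16.3 to 17.5), and the log2 fold change was 0.12 in LOW versus CON and 0.14 in the pooled comparison.

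SLC25A20, which exchanges acylcarnitine for carnitine across the inner membrane, had 2.71, 2.90 and 3.14 scaled FPKM in CON, 3.67, 3.24 and 3.30 in LOW and 2.98, 3.06 and 3.35 in HIGH. The 3 LOW libraries were above CON, with a log2 fold change of 0.22 (95% confidence interval -0.10 to 0.53), and HIGH overlapped with both. Part of this row came from an antisense transcript. In the annotated transcript alone, LOW (3.01 to 3.38) overlapped with CON (2.58 to 3.05). CPT2, which reforms acyl-CoA on the inner side, had means of 23.8 ± 3.47, 23.8 ± 2.44 and 20.8 ± 2.94. The group means of CPT1A and SLC25A20 were highest in LOW and lowest in CON, and CPT2 had its lowest mean in HIGH.

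The acyl-CoA dehydrogenases start each round of oxidation and differ in the chain length they take. ACADVL, for very long chains, had 22.3, 27.9 and 41.4 scaled FPKM in CON, 26.6, 31.1 and 27.9 in LOW and 26.3, 26.9 and 29.4 in HIGH. ACADL, for long chains, was far lower, at 5.40, 3.30 and 2.76 in CON, 3.598, 3.07 and 3.13 in LOW and 3.97, 3.14 and 3.57 in HIGH. In CON the extremes of the 2 genes lay in opposite libraries, with replicate 1 lowest for ACADVL and highest for ACADL. ACADS, for short chains, was among the most variable members, at 14.8, 19.99 and 26.3 in CON, 16.5, 19.0 and 21.2 in LOW and 11.1, 15.7 and 20.5 in HIGH, and the groups overlapped in each comparison.

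The remaining steps are carried out by ECHS1 and HADH in the matrix and by the membrane-bound trifunctional protein of HADHA and HADHB. ECHS1 (22:50733609-50740406), the short-chain enoyl-CoA hydratase, had 87.8, 72.1 and 74.0 scaled FPKM in CON, 68.4, 68.1 and 63.5 in LOW and 77.8, 71.7 and 72.9 in HIGH. The LOW libraries were below both other groups, with a log2 fold change of -0.22 versus CON (SE 0.12, limma adjusted p = 1.00), or -0.13 without CON replicate 1. HADHA and HADHB are neighbours on chromosome 3 (33293757-33338485 and 33343440-33367039). HADHA had 37.6, 38.7 and 40.6 in CON, 41.9, 43.5 and 43.4 in LOW and 40.0, 40.4 and 44.4 in HIGH, while HADHB had 68.3, 65.7 and 78.6, 75.2, 73.4 and 74.4, and 69.3, 68.3 and 71.9. For HADHA the LOW libraries were all above CON (log2 fold change 0.14, 95% confidence interval -0.088 to 0.37), for HADHB they lay inside the CON range. In FPKM as deposited the LOW libraries of HADHA (40.6 to 41.7) overlapped with CON (39.4 to 41.8). HADH, which oxidises medium and short hydroxyacyl chains, averaged 50.4 ± 10.1, 47.6 ± 3.08 and 39.2 ± 11.02, with its lowest value, 29.6, in HIGH replicate 1.

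ETFDH passes the electrons of the acyl-CoA dehydrogenases to ubiquinone and was the most variable member. It had 4.68, 3.42 and 1.87 scaled FPKM in CON, 3.40, 3.10 and 3.10 in LOW and 5.04, 4.46 and 3.61 in HIGH. CON replicate 3 was the lowest of all 9 libraries. All HIGH libraries lay above all LOW libraries, with a log2 fold change of 0.43 (SE 0.29), and overlapped with CON.

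Glutamine use was represented by GLUD1 and the aspartate aminotransferases. GOT2, the mitochondrial form, had 89.5, 96.3 and 109 scaled FPKM in CON, 94.5, 103 and 99.5 in LOW and 77.8, 88.7 and 102 in HIGH. GOT1, the cytosolic form, had 34.3, 41.0 and 51.8 in CON, 37.9, 43.8 and 40.4 in LOW and 29.0, 35.8 and 40.0 in HIGH. GLUD1, glutamate dehydrogenase, was the lowest of the 3 and also the most even, at 36.0, 33.1 and 32.0 in CON, 33.4, 29.3 and 29.4 in LOW and 32.9, 30.3 and 30.2 in HIGH. By fold change all 3 were lower in HIGH than in CON, from -0.27 for GOT1 to -0.11 for GLUD1 on the log2 scale. The groups overlapped for each of them.

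**Figure D3:**
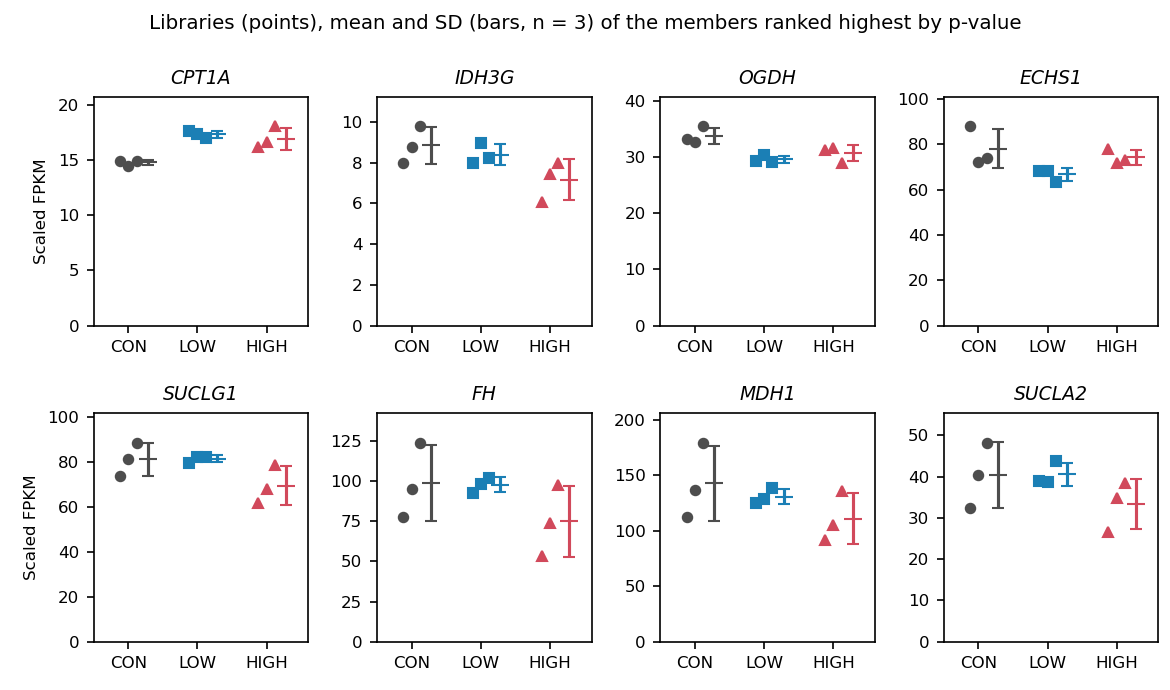
Scaled FPKM (axes from 0) of the 8 members that were among the 3 smallest p-values of any comparison, with 1 point per library and the mean and SD (n = 3) beside it. On this scale CPT1A and OGDH are the only members of which the 3 CON libraries stand apart from all 6 libraries with glucose, and FH and MDH1 spread as widely within CON and HIGH as between groups. CPT1A and OGDH do not stand apart in FPKM as deposited.

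The spread between single CON libraries was larger than that between group means for most members, as for most genes. A mean of 3 libraries varies less than a single library, so these ranges are unlike quantities and do not test the groups. The range of the 3 CON libraries exceeded the range of the 3 group means in 25 of 30 members (83.3%, and 81.2% of the 11435 genes with scaled FPKM of 1 or more in each library). LOW had the narrowest range in 24 members (80.0%, and 67.1% of those genes). The median range on the log2 scale was 0.38 in CON, 0.15 in LOW and 0.32 in HIGH, against a median range of 0.21 between the group means.

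This spread had a pattern that recurred between groups. Within each group, the library with the highest share of small RNA (replicate 3 in each) was compared with the library with the lowest (replicate 1 in each). In CON, 18 members were higher in replicate 3 and 12 lower, by more than 0.5 on the log2 scale for 8 and 5 of them. Of the 11435 genes, 58.3% were higher, and 3541 were higher and 2457 lower by more than 0.5, so these counts do not set the members apart. The 8 were ACADVL (0.89), ACADS (0.83), FH (0.68), MDH1 (0.68), IDH2 (0.63), GOT1 (0.59), HADH (0.57) and SUCLA2 (0.57). The 5 were ETFDH (-1.28), ACADL (-0.94), ACO1 (-0.90), CS (-0.75) and IDH3B (-0.74). In HIGH, 27 of the 30 members had the same sign as in CON (79.1% of all genes of such levels), and over the members Pearson's r between the differences was 0.86 (0.69 over all genes of such levels). In LOW, 24 members had the same sign as in CON (8150 of the 11435 genes), with r of 0.72 (0.39 over those genes). The members share the same libraries, and r is given as a description. Enzymes of 1 route lay on both sides, with ACADVL and ACADS opposite ACADL and ETFDH, and FH opposite CS. Whether library composition or the state of the cells moved with these genes was not tested.

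**Figure D4:**
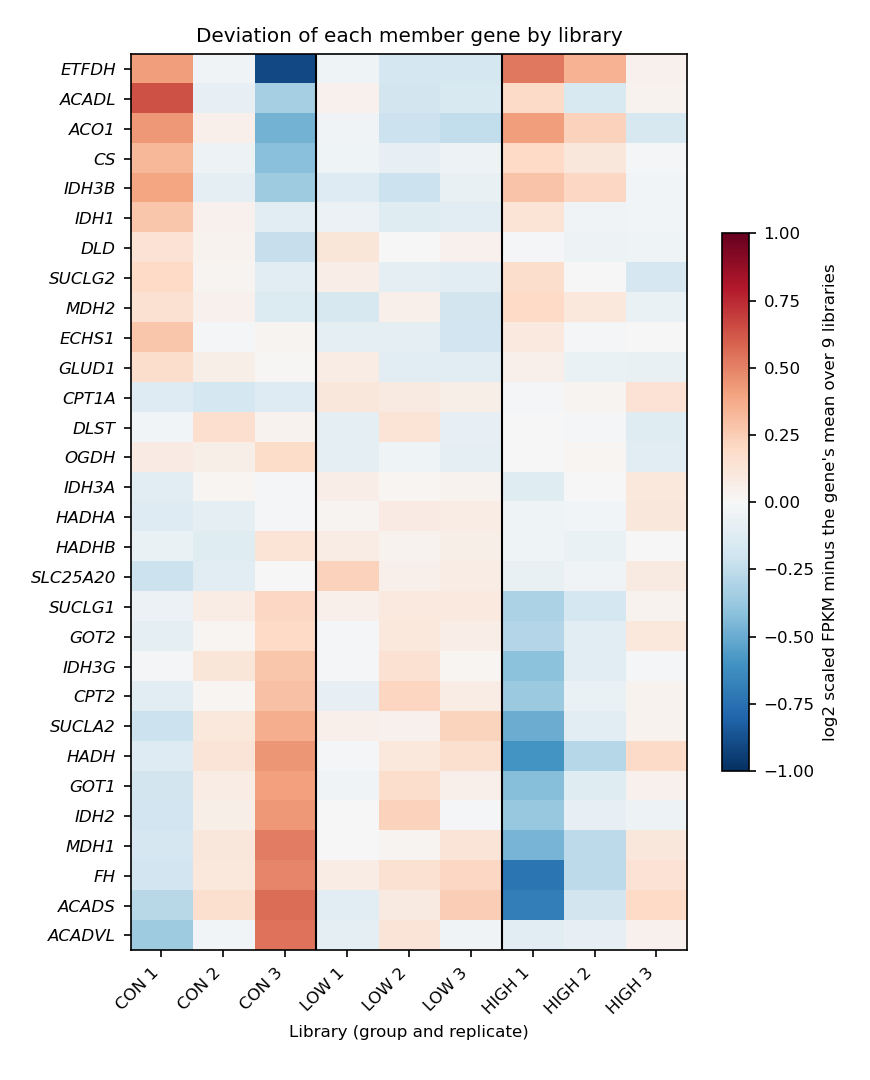
Deviation of each member (rows) from its own mean over the 9 libraries (columns), on the log2 scale, ordered by the difference between CON replicate 3 and CON replicate 1. CON 1 and HIGH 1 share colours down most of the rows and CON 3 has the opposite ones, from ETFDH (-1.28) at the top to ACADVL (0.89) at the bottom, while the LOW libraries stay pale.

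The comparison of HIGH with CON depended on these libraries. Without CON replicate 1, 11 members had an unadjusted p-value under 0.05 instead of 0, but 26.1% of all genes did so as well, and 0 members passed after adjustment in limma (lowest adjusted p = 0.173). In that fit MDH1 (-0.52), IDH2 (-0.41), SUCLA2 (-0.42), FH (-0.58), GOT1 (-0.41), IDH3G (-0.37), HADH (-0.52) and ACADS (-0.58) were lower in HIGH on the log2 scale, and ETFDH (0.75), IDH3B (0.38) and CS (0.34) higher. Without HIGH replicate 3, 5 members had an unadjusted p-value under 0.05 in HIGH versus CON (13.7% of all genes) and 3 in HIGH versus LOW (16.2%). With the replicate number as a block in the model, 7 members had one in HIGH versus CON (15.1% of all genes), all lower in HIGH. In HIGH versus LOW it was 6 (16.1%), of which 5 were lower.

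Enzymes that exist in a mitochondrial and a cytosolic form were compared as log2 ratios within each library, which cancels the library scaling. IDH2 over IDH1 was 0.21, 0.70 and 1.23 in CON, 0.74, 1.03 and 0.78 in LOW and 0.18, 0.64 and 0.66 in HIGH. All HIGH libraries lay below all LOW libraries, with a difference of means of -0.36, and an exact permutation test of 3 against 3 libraries gave p = 0.1, the smallest it can give. MDH2 over MDH1 was -0.32, -0.71 and -1.28 in CON, -0.78, -0.61 and -0.95 in LOW and 0.028, -0.27 and -0.81 in HIGH, with a difference of 0.42 for HIGH versus CON (exact permutation p = 0.4). GOT2 over GOT1 was the steadiest ratio, between 1.08 and 1.38 (CON), 1.23 and 1.32 (LOW) or 1.30 and 1.42 (HIGH). Over the 12 tests of 3 ratios, the lowest adjusted p-value was 0.686.

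**Figure D5:**
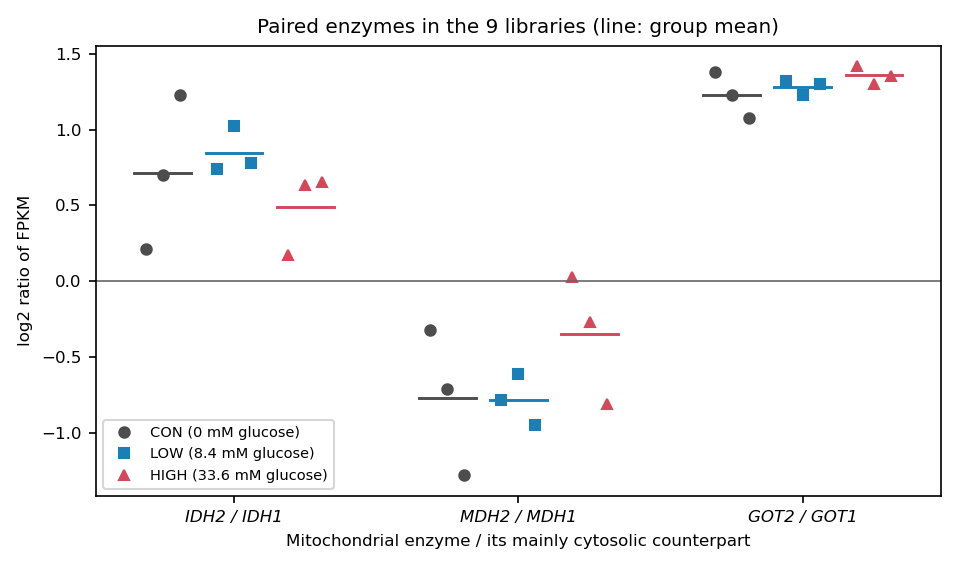
Log2 ratio of the mitochondrial over the cytosolic enzyme in each library, with group means as lines. GOT2 stays above GOT1 (1.08 to 1.42) in all 9 libraries, while MDH2 over MDH1 runs from -1.28 in a CON library to 0.028 in a HIGH library.

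Transcripts were examined for isoforms that the gene rows hide. The 30 members had 41 transcripts, of which 37 were tested and 22 members had only 1. None passed an adjusted p-value of 0.05 in limma in any comparison (0.0279% of the 39471 transcripts tested in LOW versus CON and in HIGH versus CON, 0.0355% in HIGH versus LOW and 0.0329% in the pooled comparison), and 1 had an unadjusted p-value under 0.05 in LOW versus CON (2.72% of all transcripts), 0 in HIGH versus CON (6.07%), 0 in HIGH versus LOW (6.91%) and 1 in the pooled comparison (3.39%). In both cases it was the CPT1A transcript ENSOART00000017983, which held all of the CPT1A signal (log2 fold change 0.24, SE 0.098). The next by the F-test over the groups were the SUCLG1 transcript ENSOART00000022212 and the IDH3G transcript ENSOART00000007073. The latter held 86.0% of the IDH3G signal, and the rest came from an assembled transcript whose share left it with 62.9% in LOW replicate 3 and 99.1% in CON replicate 1. In the annotated IDH3G transcript alone, HIGH (6.05 to 6.73) overlapped with LOW (5.16 to 7.74) and lay below CON (7.69 to 8.19). The row of SUCLA2 included 8.76% from an antisense transcript, and that of SLC25A20 4.25%. Whether reads were assigned by strand is not given in the sources used here, so these shares are uncertain. In the main SUCLA2 transcript alone, HIGH (23.2 to 35.0) overlapped with LOW (34.0 to 37.7). For DLD, an assembled transcript held 97.5% and the annotated transcript only 2.45%. In the assembled DLD transcript alone, HIGH (6.42 to 6.72) overlapped with LOW (6.61 to 7.31).

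Related genes were taken from 5 lists of 88 symbols, of which 74 were tested. In each comparison 0 of the 74 passed an adjusted p-value of 0.05 in limma, and 2, 6, 2 and 5 had an unadjusted p-value under 0.05 in LOW versus CON, HIGH versus CON, HIGH versus LOW and the pooled comparison. These were 2.70, 8.11, 2.70 and 6.76% of the lists, against 1.83, 6.74, 7.63 and 2.65% of all genes. The strongest of the regulators was PDK4, the pyruvate dehydrogenase kinase that restrains the entry of pyruvate into the cycle. PDK4 had 15.8, 16.5 and 15.1 scaled FPKM in CON, 19.6, 18.7 and 20.3 in LOW and 21.0, 20.1 and 20.8 in HIGH. All 6 libraries with glucose were above CON, as for CPT1A and 0.685% of all genes, with a pooled log2 fold change of 0.34 (SE 0.088, limma adjusted p = 0.937). Among other fatty acid genes it was ACSL3, which activates long-chain fatty acids to acyl-CoA, at 13.2, 12.3 and 14.2 in CON, 11.2, 11.3 and 11.6 in LOW and 10.2, 9.61 and 9.67 in HIGH. The 3 groups of ACSL3 did not overlap, and the log2 fold change of HIGH versus CON was -0.42 (SE 0.11, limma adjusted p = 0.650). Of all genes, 3.06% were lower without overlap in LOW versus CON, 4.24% in HIGH versus CON and 7.94% in HIGH versus LOW. PDK4 and ACSL3 were picked for their p-values in these same data.

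Lower in rank were PSAT1, a transaminase of serine synthesis that uses glutamate, with means of 51.6 ± 9.64 in CON, 49.8 ± 1.12 in LOW and 39.6 ± 6.27 in HIGH, and SDHB, the iron-sulfur subunit of succinate dehydrogenase, with 35.1 ± 10.4, 34.3 ± 2.504 and 26.0 ± 6.19. SLC25A29, a mitochondrial carrier of basic amino acids, had 7.02 ± 1.08, 5.49 ± 1.07 and 5.46 ± 0.486. Of the 14 regulators, 2 had an unadjusted p-value under 0.05 in LOW versus CON (1.83% of all genes), PDK4 and PDK1, both higher in LOW. The 27 other fatty acid genes were lower by fold change in 21 cases in LOW and 19 in HIGH versus CON, with medians of -0.056 and -0.18, where 51.5 and 56.0% of all genes were higher, with medians of 0.0082 and 0.066.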

How the data were processed

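RNA of cultured GCs (9 libraries, 3 per group) was sequenced after depletion of ribosomal RNA. Per the study's methods, reads were aligned with Hisat2 and assembled with Stringtie, and the submitters' processing notes also list TopHat2, STAR 2.5.1b and HTSeq 0.6.0, without roles. The authors deposited FPKM per gene and per transcript, which were used here, and gene and transcript tables named as counts. The count values in the gene table were about FPKM times genomic span times a library factor. This held within 3% for 94.7 to 95.1% of the Ensembl genes without a symbol and above a floor, the only rows checked. The values, as the authors deposited them, were treated as a score and not as numbers of reads. Only the gene table was used, to estimate depth. The planned count tests were therefore not run. The genome build is not given in the sources used here. 0 columns were left without a sample.

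Features with FPKM of 0.1 or more in 3 libraries and a span of 300 bases or more were tested with limma 3.58.1 (R 4.3.3), with a trend on mean level, on log2(scaled FPKM + 0.1), all 9 libraries in 1 model. The scaling used the median over features with FPKM of 1 or more in each library. In the transcript table, a library factor (0.729 to 1.24) carried by unnamed genes was divided out. BH adjustment covered all features tested, and fold changes on this scale understate the change of low genes. The fit was tested on simulated data. Ratios were tested by exact permutation (two-sided, scipy 1.17.1), where 3 against 6 libraries cannot go below 0.0119.

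The members and lists were chosen with earlier results of these data known. Library values were printed for the 3 members with the smallest p-values of each comparison, the 2 highest and the lowest member of each role and the 2 most variable members, and for other members to complete an enzyme step, chosen after their values were seen. In each related list the gene with the smallest F-test p-value was named. Alternatives were other pseudocounts, filters and scalings, a replicate block, the small RNA share as a covariate, 2-group fits and each library left out. A related gene and a ratio planned with it are not reported here.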

Additional observations from a re-analysis of the deposited data

How the results depend on the processing

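The count of members past an adjusted p-value of 0.05 was 0 in each comparison under each alternative run and with each library left out, and likewise for their transcripts (lowest limma adjusted p of a member in any setting 0.173, in HIGH versus CON). With an absolute log2 fold change above 1 also required, a limit added for transcripts after the data were seen, or with no limit on span, added as well, the counts were also 0. Unadjusted counts in LOW versus CON, HIGH versus CON, HIGH versus LOW and the pooled comparison ranged over 0 to 1, 0 to 11, 0 to 3 and 0 to 2 with 1 library left out.

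The median log2 fold change of the members moved most in LOW versus CON, from -0.047 to 0.078 without CON replicate 3 (range with 1 library left out -0.079 to 0.078) and to -0.15 without library scaling. For HIGH versus LOW it was 0.017 without scaling, 0.015 with the small RNA share as a covariate and -0.099 to -0.045 with 1 library left out, and in the pooled comparison it was -0.16 without scaling. With 1 library left out it stayed at -0.12 to -0.054 in HIGH versus CON and -0.11 to -0.062 in the pooled comparison. The median level of the members in CON was 33.6 in FPKM as deposited and 32.4 after scaling. With the small RNA share as a covariate the HIGH versus LOW fold changes of FH and SUCLA2 reversed, to 0.080 and 0.047. Pooled versus CON, the ratio of MDH2 over MDH1 reversed to -0.051 without CON replicate 3 and that of IDH2 over IDH1 to 0.21 without CON replicate 3 and 0.054 without HIGH replicate 1. With 1 library left out, these differences ranged over -0.051 to 0.43 and -0.30 to 0.21, and that of GOT2 over GOT1 over 0.015 to 0.17. The cause was not tested.

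Replicate numbers are shared between groups, but the labels do not say that a number marks a shared culture or day. Same-numbered libraries deviated from their group means with correlations of 0.18 to 0.42 for replicate 1, 0.089 to 0.42 for replicate 3 and -0.027 to 0.010 for replicate 2. In each group replicate 1 had the lowest and replicate 3 the highest share of small RNA. Pairing and composition therefore cannot be told apart by these values. The numbers were not taken as pairs because the labels do not give them as such. With the replicate block the count of members called was 0 in each comparison and the unadjusted counts were 1, 7, 6 and 1, while 15.1% and 16.1% of all genes had an unadjusted p-value under 0.05 in HIGH versus CON and HIGH versus LOW. DESeq2 and edgeR were planned for the count table and not run, because its values are not counts. With 3 libraries per group, a gene had to differ by more than its unadjusted interval to be called, and even TXNIP, at 1.38 on the log2 scale in LOW versus CON, was not.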
